A study of Mus musculus with 2 samples.

Results

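Arg1-high tumor macrophages were the cells of 2 libraries from mouse pancreatic tumors that carried macrophage transcripts and in which Arg1, the gene for arginase 1, made up at least 0.1% of all transcripts. Transcripts were counted as unique molecular identifiers (UMIs), each UMI marking 1 captured RNA molecule. A barcode, the tag of 1 cell, entered the gate for macrophages when it held at least 1000 UMIs, 200 to 5000 genes, at most 8% mitochondrial UMIs, at least 3 UMIs of Csf1r, Adgre1 and Cd68 together, no UMI of Cd3d, Cd3e or Cd3g, and fewer than 10 UMIs of S100a8 and S100a9 together. Of 16523 cells that passed the first 3 limits, 3778 were gated macrophages and 396 of these were Arg1-high. They were described against the 3147 gated macrophages with Arg1 under 0.05% (Arg1-low), and the 235 cells in between were kept apart.

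KPC cells, cultured mouse pancreatic cancer cells, had been placed in the pancreas of male C57BL/6 mice and formed the tumors. One library (FLOX) came from mice with loxP sites around Slc16a1, the gene of the lactate importer MCT1. The other (MCT1-KO) came from mice in which this gene is deleted by a tamoxifen-inducible Cre driven by the Col1a2 promoter. The deletion is therefore aimed at pancreatic stellate cells and other Col1a2-expressing cells and not at macrophages. The study describes tamoxifen or corn oil given before the tumor cells. Which of these the FLOX mice of this library received, and whether they carried the Cre, is not said. An age is given only for purchased C57BL/6 mice. The age and the number of the animals behind each library are not given in the sources used here. Each group is therefore 1 library, the genotype, the animals and the preparation cannot be told apart, and no test was made: the 95% intervals in parentheses cover the error of counting molecules or cells and nothing else.

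Arginase 1 splits arginine into ornithine and urea and so takes up the amino acid that nitric oxide synthase also uses. In tumors, macrophages with much arginase are a familiar part of the myeloid infiltrate and are known for depriving T cells of arginine. They are usually contrasted with macrophages rich in complement C1q and in major histocompatibility complex (MHC) class II, which present antigen.

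The FLOX library held 212 Arg1-high cells among 2041 gated macrophages and the library labelled MCT1-KO held 184 among 1737. Their shares of the gated macrophages were 10.4% (exact binomial interval 9.10 to 11.8) and 10.6% (9.18 to 12.1), so the intervals overlapped almost wholly. As shares of all cells that passed, they were 2.89% (2.52 to 3.30) and 2.00% (1.73 to 2.31). The rule chose the cells on Arg1, so its level is a description. Arg1 UMIs per cell ran from 2 to 208 with a median of 21.5 in the FLOX library and from 2 to 103 with a median of 15 in the library labelled MCT1-KO. As a percentage of the UMIs of a cell, the median was 0.251 and the highest value 1.59 in the FLOX library, and 0.221 and 1.16 in the library labelled MCT1-KO.

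**Figure D1:**
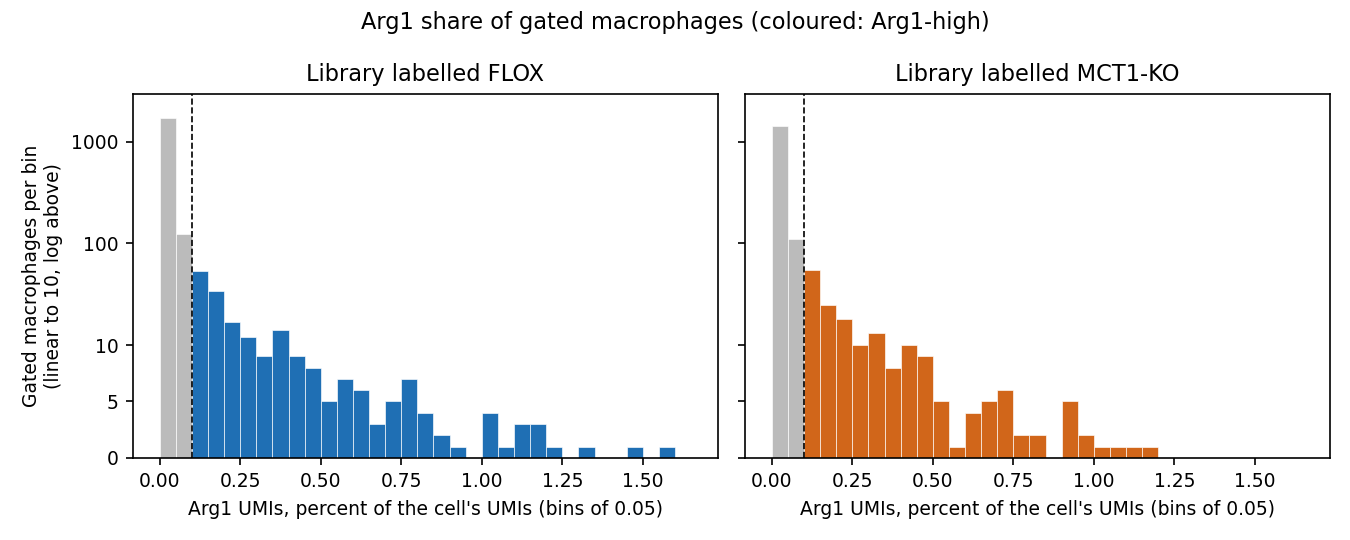
Histogram of Arg1 as a percentage of the UMIs of each gated macrophage (bins of 0.05), for the FLOX library (left) and the library labelled MCT1-KO (right), with the number of cells per bin on an axis that is linear to 10 and logarithmic above. Coloured bars right of the dashed line are the 212 and 184 Arg1-high cells, and no gap separates them from the grey cells.

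The Arg1 limit cut through a continuous range. Between 0.1% and 0.12% lay 25 cells of the FLOX library and 26 of the library labelled MCT1-KO, and 30 and 26 cells lay just outside, between 0.08% and 0.1%. Among the Arg1-low cells, 72.9% and 75.4% held no Arg1 UMI. The Arg1-high cells, although few, held 71.0% of all Arg1 UMIs of the FLOX cells and 65.7% of those in the library labelled MCT1-KO. The Arg1 level of the Arg1-low cells was 67.0 CPM in the FLOX library and 64.0 CPM in the library labelled MCT1-KO (UMIs of a gene summed over a group of cells, scaled to the total UMIs of that group). Barcodes with only 10 to 100 UMIs, too few for a cell, held Arg1 at 78.5 and 34.6 CPM. How much of the Arg1 in the Arg1-low cells is free RNA was not tested.

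Both libraries were deep, with totals of 177334432 UMIs (FLOX) and 151118092 UMIs (the library labelled MCT1-KO). The median Arg1-high cell held 8599.5 and 6106 UMIs, more than the median Arg1-low cell with 6420.5 and 5263. The libraries shared 77 barcodes with at least 1000 UMIs, and 1 Arg1-high cell had a barcode that was also a cell in the other library. A doublet caller marked 19 of 212 and 7 of 184 Arg1-high cells. In cells with collagen UMIs, where the deletion is aimed, Slc16a1 stood at 28.9 CPM in the FLOX library and 40.1 CPM in the library labelled MCT1-KO, from 34 and 57 UMIs, a ratio of 1.39 (0.894 to 2.19). Barcodes with 10 to 100 UMIs held it at 21.4 and 21.0 CPM. These sparse counts do not show the loss that the label calls for. The study itself reports lower MCT1 in the stellate cells of its single-cell data, which it annotated with its own marker genes. That annotation was not used here. The study's checks by other assays, on isolated stellate cells and on tissue sections, were not analysed here either. In the Arg1-high cells Slc16a1 was sparse, 13 and 19 UMIs, or 6.95 and 15.6 CPM, a ratio of 2.25 (1.05 to 4.95). Among other cells at which the deletion is not aimed, keratin cells had 1.38 (1.24 to 1.54) and Cd3 cells 1.12 (0.685 to 1.82). Because the loss was not seen in these counts, the second library is called by its label throughout.

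The name macrophage was checked against markers that the gate did not use. Lyz2, the macrophage lysozyme, was at 9474 CPM in Arg1-high cells for FLOX and at 6818 CPM for the library labelled MCT1-KO. C1qa, a chain of complement C1q, was at 3911 and 4089 CPM, close to the 4677 and 4624 CPM of the Arg1-low cells. Of the other markers proposed for these cells, F13a1, Il1a, Pf4 and Ccl9 were each seen in a larger share of Arg1-high than of Arg1-low cells in both libraries, and Saa3 was carried by a minority of cells.

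Ncr1 and Ly6g had no UMI in the Arg1-high cells of either library, and neither did Cxcr2, the chemokine receptor that defines neutrophils. The 12 T and NK cell genes summed to 12.8 and 13.1 CPM, and the 9 platelet genes to 3.21 and 4.11 CPM. The 12 neutrophil genes, of which the gate itself kept S100a8 and S100a9 low, summed to 260 and 274 CPM in Arg1-high cells and 226 and 165 CPM in Arg1-low cells, and none of the 4 with enough UMIs passed 2-fold higher in both libraries. The 10 dendritic cell genes summed to 2244 against 3449 CPM and 1998 against 2898 CPM, nearly all of it Cst3, which macrophages also express, at 2235 and 1992 CPM in Arg1-high cells, while Xcr1 and Cd209a had no UMI there. Fibroblast genes summed to 277 CPM against 925 CPM in Arg1-low FLOX cells, and to 725 against 950 CPM in the library labelled MCT1-KO. Acinar enzymes of the pancreas summed to 99.4 CPM against 103 CPM in the FLOX library and to 2011 against 2010 CPM in the library labelled MCT1-KO, so they differed between the libraries and not with Arg1. Keratin and other tumor cell genes summed to 160 against 230 CPM and 208 against 351 CPM. B and plasma cell genes summed to 683 against 153 CPM in the FLOX library, where 1 cell held most Jchain, and to 21.4 against 381 CPM in the library labelled MCT1-KO. Their part in the differences between the libraries was not tested.

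A gene was called when its CPM differed at least 2-fold between Arg1-high and Arg1-low cells, among genes with at least 50 UMIs over both groups. In the FLOX library 238 of 10272 genes (2.32%) were higher and 845 (8.23%) lower. In the library labelled MCT1-KO 209 of 9655 (2.16%) were higher and 746 (7.73%) lower. Of the 9499 genes tested in both libraries, 110 (1.16%) were higher and 227 (2.39%) lower in each. Counting any ratio above 1 in both libraries, whatever its size, 1750 genes (18.4%) were higher, and 4672 (49.2%) were lower. These shares are the background for the gene groups that follow. The gene lists were chosen with earlier results of these data known. List counts above the background are therefore descriptions and not independent evidence. Without cells that held UMIs of another cell type the counts past 2-fold were 72 and 102, but 71.7% and 52.7% of the Arg1-high cells held such UMIs, so this alternative left out most of them. With cells thinned to 1000 UMIs they were 23 and 13, where fewer genes could be tested and the cells were grouped anew by any Arg1 UMI against none. Calls of named groups were followed through 15 alternatives that set other limits on cells, totals, free RNA or groups, and the losses are given with each group.

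**Figure D2:**
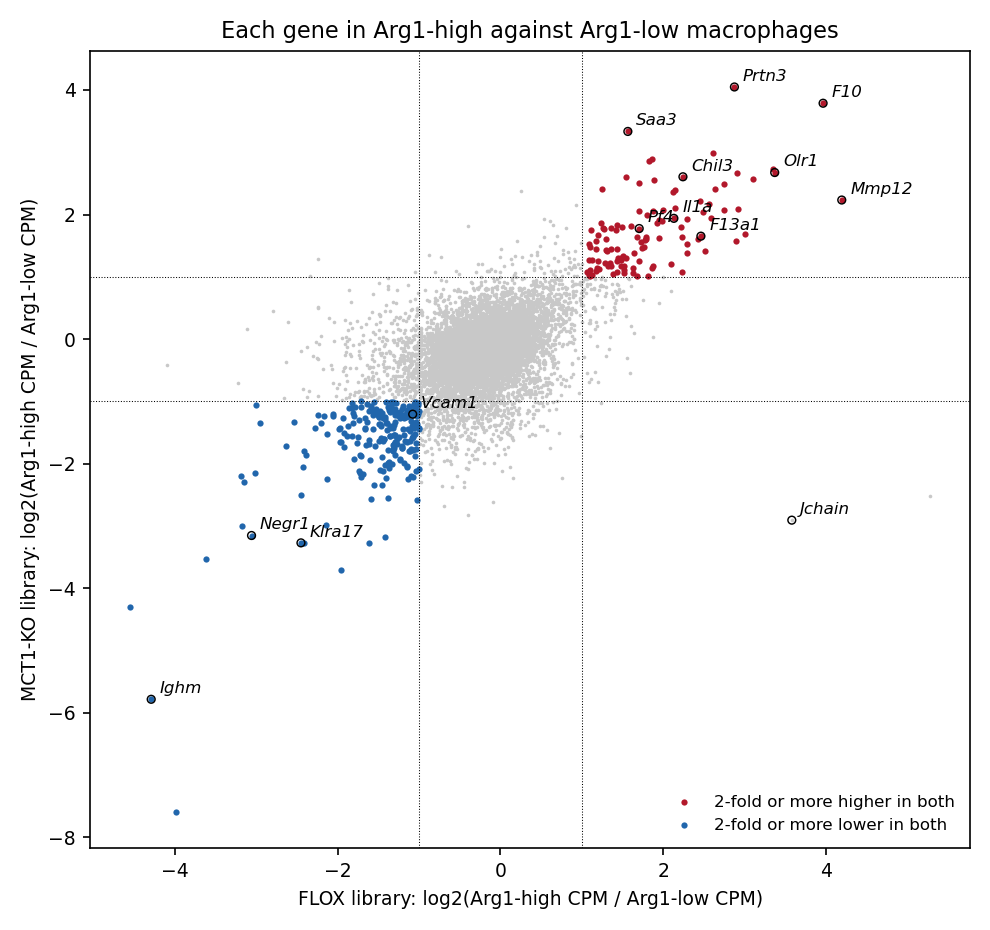
Each point is 1 of the 9499 genes tested in both libraries, placed by log2 of the ratio of Arg1-high to Arg1-low CPM in the FLOX library (x) and in the library labelled MCT1-KO (y), with dotted lines at 2-fold. The 110 red genes lie 2-fold or more higher in both libraries and the 227 blue genes lie 2-fold or more lower, and F10, Prtn3 and Mmp12 stand at the upper right while Jchain lies on opposite sides in the libraries.

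Ranked by the smaller of its ratios in the 2 libraries, the leading gene was F10, which encodes coagulation factor X. It stood at 73.2 CPM in Arg1-high and 4.68 CPM in Arg1-low cells of the FLOX library, a ratio of 15.6 (11.4 to 21.7). In the library labelled MCT1-KO the levels were 173 and 12.6 CPM, a ratio of 13.8 (10.9 to 17.5). A UMI of F10 was found in 30.7% and 38.6% of the Arg1-high cells against 1.94% and 4.37% of the Arg1-low cells. With every cell thinned to 1000 UMIs, so that depth was equal, the shares were 5.19% against 0.352% (FLOX) and 12.5% against 1.04% (the library labelled MCT1-KO), and no Cd3 cell, which should lack the gene, held one.

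The next genes, ranked by the smaller of their ratios, were Prtn3, Fam71f2, Olr1, Cd36, Areg, Slc7a2, Ltb4r1, Slc7a11 and Chil3. Slc7a2, a transporter that brings arginine into the cell, was at 180 against 20.9 CPM and at 188 against 31.5 CPM, ratios of 8.62 (7.29 to 10.2) and 5.97 (5.0 to 7.13). Fam71f2 had ratios of 10.2 (6.83 to 15.4) and 6.61 (4.51 to 9.67). Olr1, the receptor for oxidized low-density lipoprotein, was 10.4 (8.70 to 12.3) and 6.38 (4.99 to 8.16) times higher. The ratios of Cd36, a fatty acid and lipoprotein receptor, were 7.51 (5.97 to 9.45) and 6.32 (4.02 to 9.9). Slc7a11, the cystine importer, had ratios of 6.21 (5.22 to 7.37) and 5.32 (4.45 to 6.36). Areg, an epidermal growth factor family ligand, had 6.11 (4.28 to 8.71) and 7.95 (6.40 to 9.87), in only 6.6% and 14.7% of the Arg1-high cells. Prtn3, a granule protease of immature myeloid cells, had 7.34 (4.87 to 11.1) and 16.5 (12.6 to 21.9). Chil3, a chitinase-like protein of monocytes and alternatively activated macrophages, had 4.74 (3.72 to 6.02) and 6.09 (5.61 to 6.6). The FLOX ratios of Areg and Prtn3 moved between alternatives. With no upper limit on genes Areg was 2.69, and without cells that held UMIs of another type Areg and Prtn3 were each 3.6. Barcodes with 10 to 100 UMIs of the FLOX library held Areg at 18.2 and Prtn3 at 13.6 CPM, above the 5.69 and 3.93 CPM of the Arg1-low cells, so with free RNA subtracted their Arg1-low level was at the floor of 3 UMIs and no ratio is given.

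Several of these genes were at least as high in the neutrophils of the same libraries, taken as cells with 10 or more S100a8 and S100a9 UMIs. Neutrophils held Olr1 at 489 and 592 CPM against 184 and 103 CPM in Arg1-high cells. For Slc7a11 the neutrophil levels were 895 and 361 CPM, and for Ltb4r1, a leukotriene B4 receptor, 78.0 and 41.8 CPM against 30.5 and 39.4 CPM. Prtn3 was at 523 CPM in FLOX neutrophils and 9.66 CPM in those of the other library. F10 was at 59.2 and 96.6 CPM in neutrophils, against 73.2 (61.5 to 86.6) and 173 CPM in Arg1-high cells. The FLOX levels were close, and neutrophils of both libraries were above the 4.68 and 12.6 CPM of Arg1-low cells. By contrast Slc7a2 was at 1.34 and 6.44 CPM in neutrophils. Neutrophil genes as such were mixed. Csf3r was at 29.4 against 57.4 CPM in FLOX and 23.0 against 31.7 CPM in the library labelled MCT1-KO, lower in Arg1-high cells of each, whereas Trem1, a receptor of neutrophils and monocytes, was at 106 against 26.7 CPM and 78.1 against 39.1 CPM. The part of neutrophil RNA in the values of these genes was not tested.

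The promoters of 6 genes called higher in both libraries are shown because they belong to the hypoxia, lactate, clotting, cytokine and chemokine groups described next. They were chosen with their motif matches in view, so each holds a marked motif. Hilpda, a hypoxia gene described below, had no ACGTG in the first of its listed promoters and 1 in the second and is not shown. They are RefSeq sequences of build GRCm38.p6, from 250 bases before to 50 after the start of the gene. Capitals mark ACGTG, the core letters of the hypoxia response element, in the first 3 and TGANTCA in the last 3, with N any base and both strands read. TGANTCA is wider than the AP-1 site, TGACTCA or TGAGTCA, which it includes. The match in Ccl9 and the first in F3 read TGAATCA and lie outside that site. The AP-1 site alone was not counted.
Bnip3, chr7:138909457-138909756, minus strand: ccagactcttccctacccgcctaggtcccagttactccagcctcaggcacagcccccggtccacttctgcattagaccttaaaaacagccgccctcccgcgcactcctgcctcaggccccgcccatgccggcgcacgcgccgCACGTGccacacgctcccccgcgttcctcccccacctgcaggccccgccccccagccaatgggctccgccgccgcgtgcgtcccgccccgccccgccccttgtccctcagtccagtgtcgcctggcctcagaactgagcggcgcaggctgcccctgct
Slc16a3, chr11:120948817-120949116, plus strand: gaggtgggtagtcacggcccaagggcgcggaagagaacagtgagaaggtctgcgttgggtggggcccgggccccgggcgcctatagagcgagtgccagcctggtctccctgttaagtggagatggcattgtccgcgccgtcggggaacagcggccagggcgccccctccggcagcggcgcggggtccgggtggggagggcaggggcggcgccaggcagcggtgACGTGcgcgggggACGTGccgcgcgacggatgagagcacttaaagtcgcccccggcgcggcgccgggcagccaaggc
F10, chr8:13037058-13037357, plus strand: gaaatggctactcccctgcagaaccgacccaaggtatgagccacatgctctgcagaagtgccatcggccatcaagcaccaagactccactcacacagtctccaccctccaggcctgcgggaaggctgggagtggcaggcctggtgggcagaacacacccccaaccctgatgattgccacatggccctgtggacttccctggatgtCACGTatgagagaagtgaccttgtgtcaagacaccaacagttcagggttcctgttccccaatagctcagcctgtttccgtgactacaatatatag
Il1a, chr2:129309923-129310222, minus strand: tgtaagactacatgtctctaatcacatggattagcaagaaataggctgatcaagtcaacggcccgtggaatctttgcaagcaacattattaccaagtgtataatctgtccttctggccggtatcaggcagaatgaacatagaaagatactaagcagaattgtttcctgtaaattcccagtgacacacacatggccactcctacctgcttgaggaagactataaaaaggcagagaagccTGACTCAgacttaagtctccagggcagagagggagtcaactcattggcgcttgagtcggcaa
Ccl9, chr11:83578587-83578886, minus strand: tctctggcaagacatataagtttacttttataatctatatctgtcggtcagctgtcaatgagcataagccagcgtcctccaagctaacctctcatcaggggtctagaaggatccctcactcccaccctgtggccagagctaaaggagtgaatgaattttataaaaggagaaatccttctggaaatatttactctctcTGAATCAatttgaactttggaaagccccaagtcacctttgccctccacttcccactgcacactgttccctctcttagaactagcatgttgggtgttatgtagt
F3, chr3:121723287-121723586, plus strand: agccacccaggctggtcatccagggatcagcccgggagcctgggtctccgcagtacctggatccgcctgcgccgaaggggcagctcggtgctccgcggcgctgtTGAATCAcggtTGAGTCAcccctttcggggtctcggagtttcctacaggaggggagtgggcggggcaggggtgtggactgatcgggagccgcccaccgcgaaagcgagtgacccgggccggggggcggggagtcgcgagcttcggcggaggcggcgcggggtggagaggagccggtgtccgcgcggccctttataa
Of the 110 genes called higher, 92 had a promoter in the table. ACGTG was present in 33.7% of these, in 30.5% of the 7588 tested genes with a promoter and in 19.6% of all 32851 promoters. A gene counted when any of its listed promoters held the letters, while the share of all promoters counts each promoter singly, so the gene and promoter shares are not alike. TGANTCA was present in 20.7%, against 6.43% of the tested genes and 7.81% of all promoters. TGACNNNGC, the letters of the antioxidant response element, was found in 9.78% against 17.3% and 12.4% of the same sets, and it shares letters with TGANTCA where both fit the same bases. A match in these letters is a description of the window and not a binding site.

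Clotting and wound matrix genes were mostly higher in Arg1-high cells. Of 18 tested, 16 were higher in both libraries by any amount, against 18.4% of all genes, and 6 passed 2-fold in each, against 1.16%, and the median log2 ratio was 1.2 and 0.87 against −0.17 and −0.14 over all genes tested. F13a1, the subunit of factor XIII that cross-links fibrin, stood at 494 against 89.5 CPM in FLOX, a ratio of 5.52 (5.05 to 6.03), and at 822 against 262 CPM in the other library, 3.14 (2.92 to 3.39). A UMI of it was seen in 74.5% and 83.2% of the Arg1-high cells. F3, the tissue factor that starts clotting, had ratios of 4.43 (3.05 to 6.40) and 4.32 (3.0 to 6.17), although it was found in only 12.7% and 13% of the cells. Fn1, fibronectin, had ratios of 2.79 and 2.26, Ecm1, an extracellular matrix protein, 2.79 and 2.40, and Lgals3, a galactose-binding lectin, 3.08 and 2.08. Of the 6 calls, F10 alone held in every alternative. With thinned cells F3 was 1.66 in FLOX, and F13a1 was 1.98, Ecm1 1.84 and Lgals3 1.59 in the library labelled MCT1-KO. With no upper limit on genes Fn1 was 1.64 and 1.88. At the other end, the highest FLOX ratio over the alternatives was 13.9 for Fn1 and 14.9 for F3. When thinning was set aside, 3 of the 6 held. Outside macrophages F13a1 was low, with 5.38 and 25.8 CPM in neutrophils and at most 4.36 CPM in Cd3, keratin, collagen or endothelial cells of either library.

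Hypoxia and glycolysis genes were higher as groups. Hilpda, which coats lipid droplets and is a target of hypoxia-inducible factor, was at 512 against 90.8 CPM in FLOX, a ratio of 5.64 (5.16 to 6.16), and at 479 against 117 CPM in the other library, 4.10 (3.70 to 4.55). Bnip3, which acts in removal of mitochondria, had ratios of 5.47 (4.84 to 6.18) and 4.67 (3.86 to 5.64). Slc16a3, the lactate exporter MCT4, was at 139 against 31.4 and at 71.5 against 13.7 CPM, ratios of 4.43 (3.77 to 5.20) and 5.23 (3.93 to 6.94). Of 18 hypoxia genes tested, 6 passed 2-fold higher in both libraries, against 1.16% of all genes, and none lower. The medians were 0.89 and 0.59, and all 6 calls held in the 15 alternatives. Of 21 glycolysis and lactate genes, 8 passed and 17 were higher in both by any amount, against 18.4% of all genes, with medians of 1.17 and 0.89. The 8 were the enzymes Gpi1, Aldoa, Tpi1, Pgk1, Pgam1, Eno1 and Pkm and the exporter Slc16a3, while the glycolytic enzymes Gapdh and Pfkl did not pass in both. In every alternative 3 of the 8 held, Tpi1, Pgk1 and Slc16a3, and 6 held when thinning was set aside. Pgk1 ratios were 3.88 and 3.08, and Ldha, lactate dehydrogenase, had 2.59 and 1.85. Vegfa, another hypoxia target, was higher by 1.44 (1.26 to 1.64) and 1.76 (1.41 to 2.17), short of 2-fold. Hilpda was not particular to macrophages, since with cells thinned to 1000 UMIs it was seen in 30.2% and 34.2% of Arg1-high cells, 6.98% and 9.84% of Arg1-low cells and 13.7% and 14.8% of Cd3 cells.

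In the arginine list the neighbours of Arg1 were uneven. Of 14 genes tested apart from Arg1 itself, 3 passed higher in both libraries, against 1.16% of all genes: Slc7a2, Nos2 and Acod1. The list's median was 0.17 and 0.02. Nos2, the inducible nitric oxide synthase that competes for arginine, had ratios of 6.74 (4.58 to 9.93) and 4.20 (2.62 to 6.64), but from 58 and 31 UMIs in 14.2% and 8.70% of the cells. Acod1, which makes itaconate, had 2.16 (1.96 to 2.36) and 3.37 (3.0 to 3.78). With thinned cells the FLOX ratios were 1.5 for Nos2 and 1.64 for Acod1, and without cells that held UMIs of another type 1.71 for Acod1, so Slc7a2 alone held in every alternative. Odc1, which takes ornithine into polyamines, was at 237, 224 and 165 CPM over 3 steps of increasing Arg1 within the Arg1-high cells of the FLOX library and at 251, 206 and 270 CPM in those of the library labelled MCT1-KO, with 189 CPM in the Arg1-low cells of each.

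Inflammatory cytokines were higher as a group. Of 16 tested, 7 passed 2-fold in both libraries, against 1.16% of all genes, and none was lower 2-fold, with medians of 0.91 and 0.95. Il1a, an alarmin cytokine, was at 300 against 68.4 CPM, a ratio of 4.38 (3.93 to 4.89), and at 298 against 77.8 CPM, 3.83 (3.37 to 4.36). Its relative Il1b differed less, 1.42 (1.37 to 1.47) and 1.69 (1.62 to 1.76), from high levels of 1290 and 1343 CPM in Arg1-low cells. Il1rn, the natural blocker of the IL-1 receptor, had 2.47 and 2.70, and Ptgs2, the inducible prostaglandin synthase, 2.56 and 2.25. Il6 had 3.25 and 4.17. The FLOX ratio of Il6 was 2.34 with no upper limit on genes and 30.4 without cells that held UMIs of another type. Over all alternatives it reached 87.2. Tnf had 2.69 and 2.74, and Il10, an anti-inflammatory cytokine, had 2.40 and 3.44. Among the members named here, pro- and anti-inflammatory ones stood on the same side. Of the whole list, 13 were higher and 2 lower in both libraries by any amount. In every alternative 3 of the 7 calls held, Il1a, Il6 and Tnfsf9. Without cells that held UMIs of another type Il10 was 1.43 in FLOX and Ptgs2 1.84 in the library labelled MCT1-KO, where with thinned cells Tnf was 1.61 and Il1rn 1.87.

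Chemokines went both ways. Pf4, a CXC chemokine best known from platelets, was at 1412 against 433 CPM in FLOX, a ratio of 3.26 (3.11 to 3.42), and at 1178 against 344 CPM in the other library, 3.42 (3.21 to 3.64), while the platelet gene Gp9 was at 0 in both. Cxcl2, which attracts neutrophils, was among the most abundant, 6281 against 1820 CPM and 7270 against 2326 CPM, ratios of 3.45 and 3.13. Cxcl1 had 3.80 and 3.63. Of the CC chemokines, Ccl9 was at 393 against 115 and 307 against 102 CPM, ratios of 3.43 (3.13 to 3.75) and 3.01 (2.67 to 3.40), and Ccl6 had 3.88 and 3.75. Ccl2 and Ccl7, which attract monocytes, were nearer 2-fold, 1.82 and 2.19 for Ccl2 and 1.78 and 2.08 for Ccl7. Lower were Ccl8, 0.404 and 0.592, Cxcl9, the interferon-induced ligand of Cxcr3, 0.473 and 0.680 (the latter 1.09 with thinned cells), and Ccl17, which draws T cells and was at 0 and 3.29 CPM against 14.6 and 26.4 CPM. In all, 5 of 20 chemokines passed higher in both libraries and 2, Ccl17 and Cxcl13, passed lower, against 1.16% and 2.39% of all genes. Both lower calls were lost and turned direction in an alternative, Ccl17 to 1.25 in FLOX with thinned cells and Cxcl13 to 1.55 in the library labelled MCT1-KO without cells that held UMIs of another type. Such ratios set a count under 3 UMIs to 3, so these turns can rest on few UMIs. Of the higher ones, Ccl9 was 1.76 in the library labelled MCT1-KO with thinned cells.

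Of 13 monocyte genes tested, 7 passed higher in both libraries, against 1.16% of all genes, with medians of 1.1 and 1.48. Clec4e, a pattern receptor, had ratios of 4.91 and 2.89, and Ccr2, the receptor that brings monocytes into tissue, 2.14 (1.71 to 2.65) and 2.79 (1.97 to 3.9), the latter 1.48 without cells that held UMIs of another type and 0.870 with thinned cells. Of the 7 calls, 2 held in every alternative, Chil3 and Ifitm6, and 4 when thinning was set aside. Ly6c2, the classical monocyte surface marker, did not differ in this way, 11.8 against 14.1 CPM and 35.3 against 31.8 CPM. At least 3 UMIs of Ly6c2 and Ccr2 together were present in 9.91% (6.24 to 14.7) and 5.98% (3.02 to 10.4) of Arg1-high cells, against 3.29% (2.49 to 4.25) and 1.80% (1.18 to 2.63) of Arg1-low cells. Arg1-high cells held more UMIs per cell, and these shares were not compared at equal depth.

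Lipid and oxidative stress genes were higher in part. Of 19 lipid-associated genes, Olr1, Cd36, Gpnmb and Lgals3 passed higher in both libraries and Itgax, an integrin of dendritic cells and some macrophages, passed lower at 0.374 and 0.111, the former 0.587 with thinned cells. Trem2, a lipid receptor, had 1.47 and 1.23. Spp1, osteopontin, had 2.72 (2.61 to 2.83) and 1.82 (1.72 to 1.93), but barcodes with 10 to 100 UMIs held it at 4093 and 2539 CPM, above the 680 and 640 CPM of the Arg1-low cells, and a UMI of it was in 73.6% and 42.4% of Cd3 cells. With no upper limit on genes its ratios were 1.41 and 1.43, and without likely doublets 3.37 and 3.30. Over all alternatives, which include subtracting free RNA, its FLOX ratio ran from 1.41 to 2050, so its size is not settled. The subtraction took 31.4% of Arg1-low FLOX UMIs as free RNA, more Spp1 than these cells held, so the value of 2050 rests on the floor of 3 UMIs. Apoe, among the most abundant genes at 25157 and 23205 CPM, had 0.874 and 0.689, the former 1.09 with no upper limit on genes. Hmox1, which breaks down heme, was at 817 against 251 CPM and 550 against 97.1 CPM, ratios of 3.26 (3.06 to 3.47) and 5.66 (5.11 to 6.27), with 22.4% of its FLOX UMIs in 1 cell, and the FLOX ratio was 1.47 without cells that held UMIs of another type. Among matrix proteases, Adam8 had 7.56 and 4.27, and Mmp12, macrophage elastase, 18.3 (14.8 to 22.9) and 4.70 (2.85 to 7.64).

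MHC class II genes were lower as a group. Of 12 tested, 9 were lower in both libraries by any amount, against 49.2% of all genes, and 2 were higher, about the 18.4% of all genes. None passed 2-fold higher, while 1, Ciita, the transcriptional activator of the class, passed 2-fold lower in both, at 0.412 (0.294 to 0.563) and 0.489 (0.206 to 0.994), a call that several alternatives ended, the latter ratio being 1.01 with thinned cells. Over all genes 2.39% passed 2-fold lower in both libraries. The medians of the class II list were −0.82 and −0.62 against −0.17 and −0.14 over all genes. H2-Ab1, a class II beta chain, was at 2922 against 5412 CPM, a ratio of 0.540 (0.525 to 0.555), and 1854 against 2934 CPM, 0.632 (0.605 to 0.659). Class I genes did not share this, with none of 11 passing and medians of −0.08 and −0.02.

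The C1q and tissue-macrophage genes were lower by less, with medians of −0.36 and −0.38 over 15 tested. Vcam1, an adhesion molecule, passed lower at 0.473 and 0.433, but was 0.682 and 0.792 with thinned cells. Folr2, a folate receptor of resident macrophages, was the exception and passed higher at 4.36 (3.66 to 5.19) and 5.11 (4.14 to 6.30), the former 1.99 with thinned cells. Mrc1, the mannose receptor, had 0.798 and 0.932. Pparg, a lipid-sensing nuclear receptor, was lower, at 0.226 (0.0816 to 0.501) and 0.0419 (0.00105 to 0.236), from 6 and 1 UMIs in Arg1-high cells. Of the 29 transcription factors tested, it was the only one at least 2-fold lower in both libraries, and Bhlhe40, at 2.15 and 2.16, the only one at least 2-fold higher in both. Over all genes 2.39% were lower and 1.16% higher, so 1 of 29 each way is near these shares. Neither call held in every alternative, since with thinned cells Pparg was 0.890 and 0.652 and Bhlhe40 1.63 and 1.55, and with no upper limit on genes Bhlhe40 was 1.51 in FLOX. Heat shock genes had medians of −1.21 in FLOX and −0.31 in the other library, with none passing in both, and Hspa1a had 0.277 and 0.729.

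**Figure D3:**
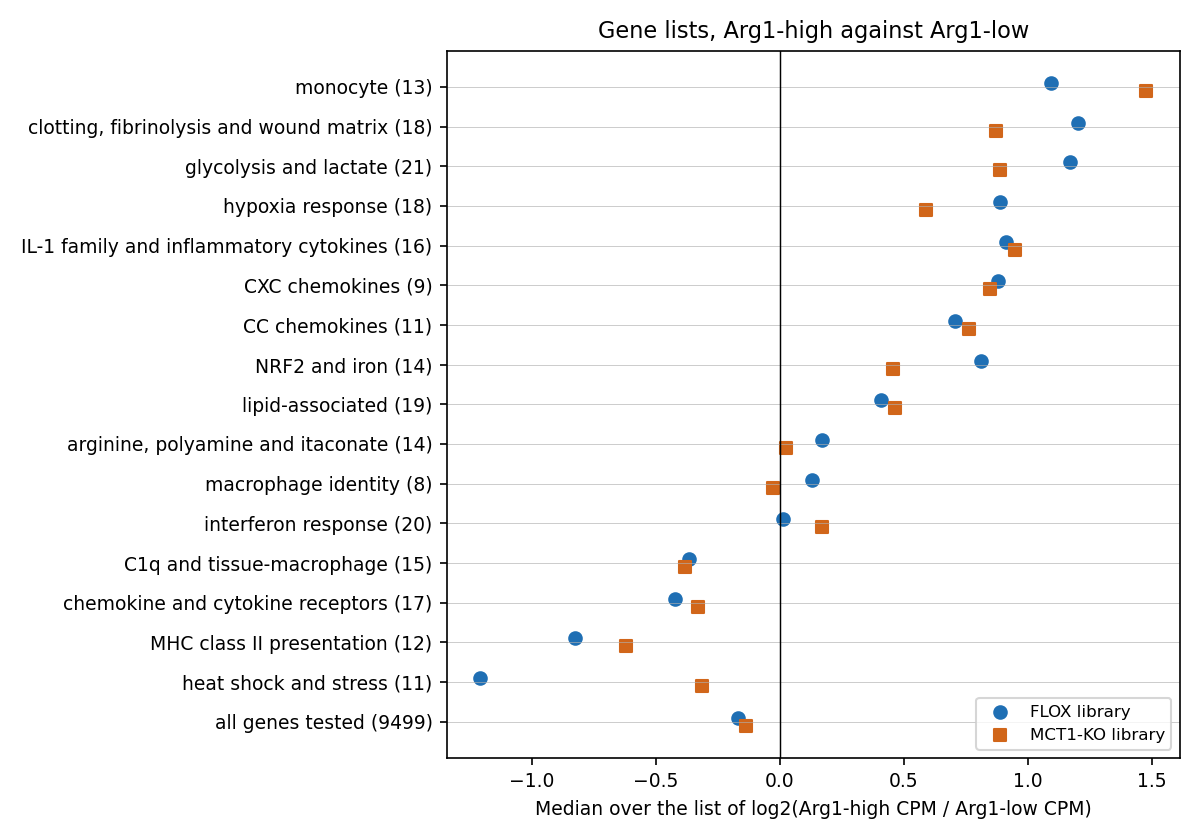
Median over each gene list of log2 of the ratio of Arg1-high to Arg1-low CPM, with the number of genes tested in parentheses, for the FLOX library (circles) and the library labelled MCT1-KO (squares). Monocyte, clotting, glycolysis, hypoxia, cytokine and chemokine lists lie above 0.5 in both libraries, MHC class II lies at −0.82 and −0.62, and all genes tested lie at −0.17 and −0.14.

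The genes furthest below in Arg1-high cells were led by immunoglobulin genes, but these rested for the most part on single Arg1-low cells. Iglc1 had 94.0% and 98.7% of its Arg1-low UMIs in 1 cell of each library, and Ighg1 88.3% and 92.0%. Ighg2c had 48.2% and 84.1% there, and without the top cell of each group its ratios were 0.0781 (0.0549 to 0.108) and 0.304 (0.189 to 0.466). Ighm was spread over 31.9% of the Arg1-low cells of the FLOX library, against 3.30% of Arg1-high cells, while in the other library 88.3% of its Arg1-low UMIs were in 1 cell. Spread over many cells were Negr1, an adhesion molecule, at 0.535 and 0 CPM against 13.4 and 21.9 CPM, and 2 lectin receptors, Klra17 at 4.28 against 23.4 and 0.822 against 23.8 CPM and Klrb1b at 5.35 against 28.4 and 4.11 against 39.6 CPM. Flt3, the receptor that defines dendritic cells, was found in 0.943% (0.114 to 3.37) of Arg1-high and 1.23% (0.764 to 1.88) of Arg1-low cells of the FLOX library. In the other library the shares were 0.543% (0.0138 to 2.99) and 1.46% (0.903 to 2.22), so the intervals overlapped in both.

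Grouping the gated macrophages by their Arg1 share showed a graded relation for some genes. The steps were under 0.05% (1704 and 1443 cells), 0.05 to 0.1% (125 and 110), 0.1 to 0.2% (88 and 80), 0.2 to 0.5% (69 and 68), and 0.5% or more (55 and 36). F13a1 was 89.5, 215, 346, 527 and 683 CPM over these steps in the FLOX library and 262, 559, 691, 787 and 1163 CPM in the other. Hilpda was 90.8, 257, 335, 472 and 836 CPM, and 117, 268, 332, 520 and 716 CPM. F10 was 4.68, 13.5, 42.8, 66.3 and 129 CPM, and 12.6, 26.3, 81.7, 215 and 294 CPM. These genes were already higher in the cells just under the limit and were higher again at each step in both libraries. Arg1 set the steps, and the genes shown were already known to be higher in Arg1-high cells, so the values are descriptions.

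Other genes went the other way or showed no order. Ccl8 was 1911, 2126, 1340, 494 and 226 CPM in the FLOX library and 1023, 1442, 748, 500 and 491 CPM in the other, with its highest value in the second step of each. Cxcl9 ended at 322 and 185 CPM from 1387 and 954 CPM. Within the Arg1-high cells Apoe was at 31760.1 CPM in the lowest Arg1 step and 20337 CPM in the highest of the FLOX library, and at 27936 and 15594 CPM in the library labelled MCT1-KO. Arg2, the mitochondrial arginase, had no order, 20.5, 31.2, 29.8, 19.9 and 22.2 CPM and 27.3, 13.2, 32.3, 47.5 and 28.2 CPM.

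**Figure D4:**
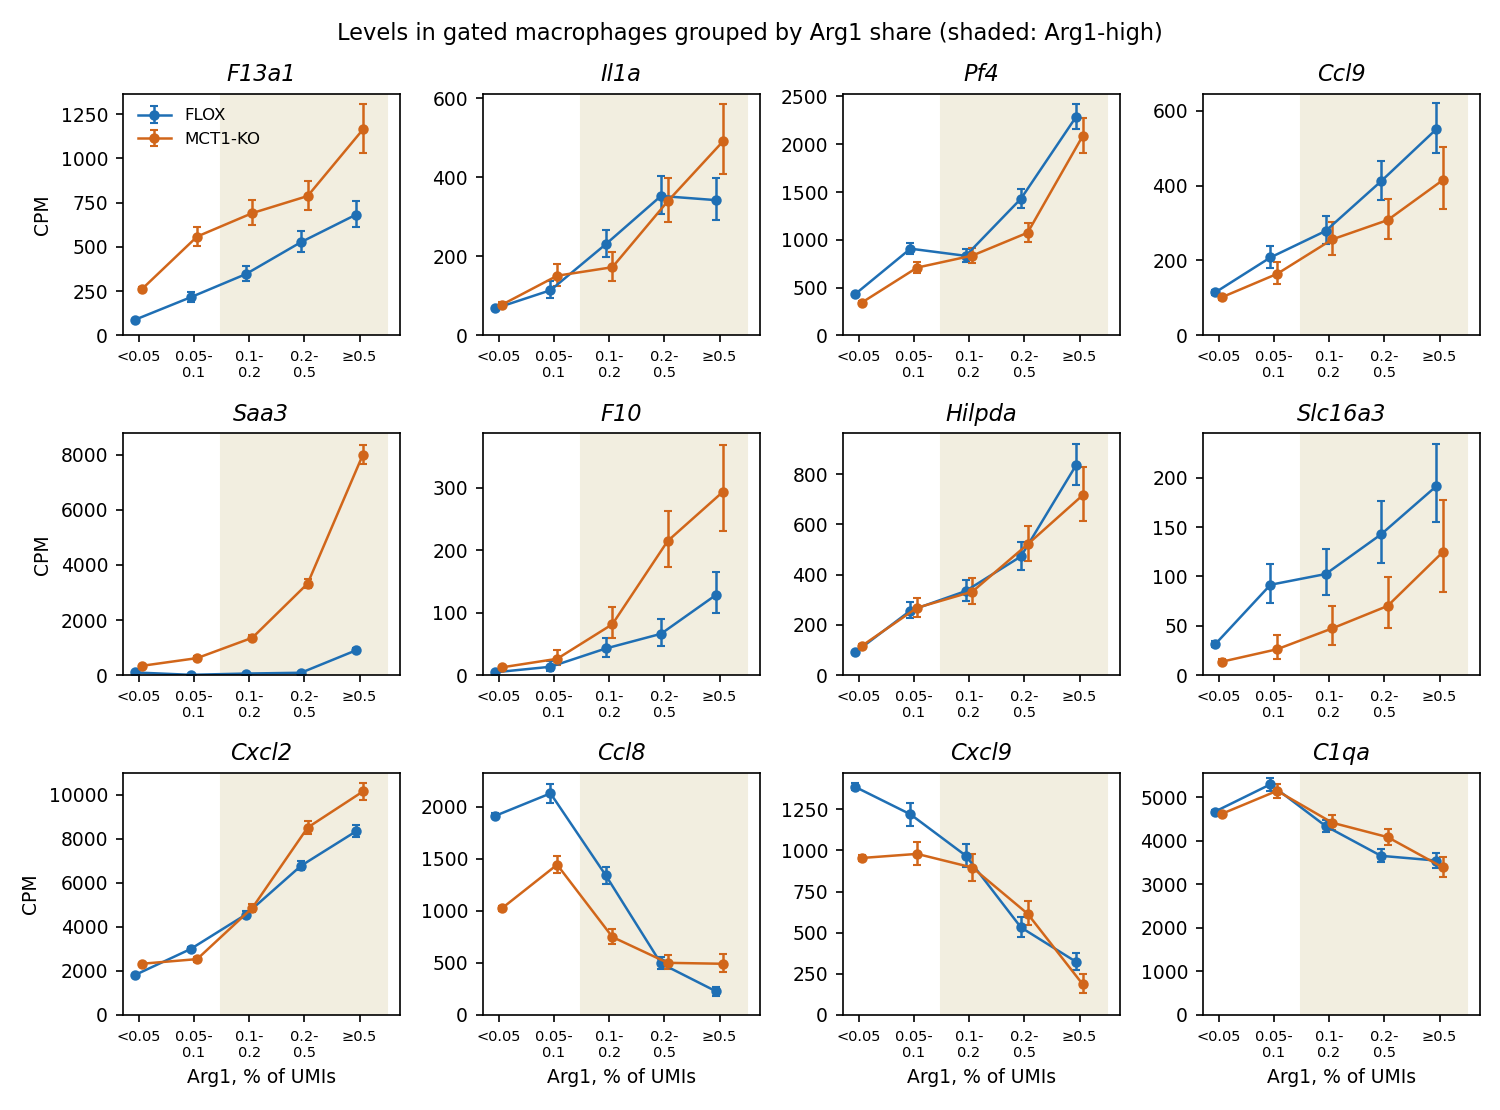
Level in CPM of 12 genes in gated macrophages grouped by Arg1 as a percentage of UMIs (x), for the FLOX library (blue) and the library labelled MCT1-KO (orange), with 95% counting intervals, and the Arg1-high steps shaded. F13a1, Hilpda, F10 and Cxcl2 are higher at each step in the shaded area, Cxcl9 is lower, and Saa3 reaches 7996 CPM in the library labelled MCT1-KO and 907 CPM in the other.

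Saa3, an acute-phase serum amyloid protein, behaved differently in the libraries. It was at 294 against 99.3 CPM in the FLOX library, a ratio of 2.96 (2.67 to 3.28), and at 3428 against 340 CPM in the library labelled MCT1-KO, 10.1 (9.62 to 10.6). In the FLOX library 37.8% of the Arg1-high UMIs lay in 1 cell, and without the top cell of each group the ratio was 2.37. Without cells that carried UMIs of another cell type the FLOX ratio was 1.19, and the call ended. Over all alternatives the ratio ran from 1.19 to 6.40 in FLOX and from 3.83 to 14.7 in the library labelled MCT1-KO. Only 16.5% and 37.0% of the Arg1-high cells held any. Collagen cells held it at 3205 and 1614 CPM, so it did not mark macrophages alone. Over the Arg1 steps it was 99.3, 14.6, 59.7, 89.5 and 907 CPM in the FLOX library, without an order below the last step, and 340, 620, 1360, 3324 and 7996 CPM in the other.

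Most Arg1-high cells were also C1q cells. C1q genes made up at least 0.5% of the UMIs in 83.5% (77.8 to 88.2) and 89.1% (83.7 to 93.2) of Arg1-high cells, against 92.6% (91.3 to 93.8) and 93.6% (92.2 to 94.8) of Arg1-low cells. The 35 and 20 Arg1-high cells with less C1q had more Ccr2 and Vcan. Their Ccr2 was at 137 and 114 CPM, against 46.0 and 29.3 CPM in the C1q-rich Arg1-high cells, and their Vcan at 32.6 and 126 CPM against 1.92 and 29.3 CPM. Other monocyte genes were mixed, with Ly6c2 at 42.4 and 31.6 CPM against 5.75 and 35.9 CPM and Fn1 at 973 and 1271 CPM against 1056 and 813 CPM. Their F10 was at 147 and 316 CPM against 58.8 and 152 CPM. They had less Folr2, 19.6 and 6.32 CPM against 136 and 145 CPM, and less Ccl8, 75.1 and 6.32 CPM against 908 and 695 CPM. F13a1 was lower there, 379 and 411 CPM against 517 and 884 CPM, so F10 and F13a1 did not go together between these cells. Because C1q genes chose the cells and the cells come from 1 library each, these values are descriptions.

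Within the Arg1-high cells, genes were also correlated across cells on log-transformed, depth-scaled values. The pairs given here were picked for their size, after the values were seen, from all pairs computed. Across 212 FLOX cells and 184 cells of the other library, Pearson's r was 0.48 and 0.40 for Arg1 with Ldha, 0.32 and 0.41 with Bnip3, and 0.34 and 0.32 with F10. F13a1 went with Pf4 at 0.36 and 0.35, Il1a with Cxcl2 at 0.39 and 0.57, and Ccl2 with Ccl7 at 0.52 and 0.64. C1qa and F10 were opposed at −0.33 and −0.33, and Pf4 and H2-Ab1 at −0.43 and −0.37. Other pairs of the same groups were near 0, such as Arg1 with Vegfa at −0.04 and 0.01 and F13a1 with F10 at 0.01 and 0.06. Cells of 1 library share its depth and free RNA, so these are descriptions.

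Between the libraries, 179 of 5968 genes (3.0%) were at least 2-fold higher and 156 (2.61%) at least 2-fold lower in the Arg1-high cells of the library labelled MCT1-KO. These counts moved widely, to 562 and 262 with free RNA subtracted, 92 and 66 without cells that held UMIs of another type, and 46 and 58 with thinned cells. The subtraction took too much for some FLOX genes, as the closing section shows. The ratio for the same gene in Arg1-low cells is given in brackets. Arg1 itself was at 3839 CPM in the FLOX library and 3357 CPM in the other, and Slc7a2 and Hilpda were near each other too, with ratios of 1.04 (0.879 to 1.24) [1.51] and 0.935 (0.842 to 1.04) [1.28]. Il1a stood at 0.995 (0.869 to 1.14) [1.14].

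Acute-phase and secreted antimicrobial genes were higher in the library labelled MCT1-KO, 8 of 14 tested against the 3.0% background, with a median log2 ratio of 1.35. Of the 8, 6 held in every alternative, while Lcn2 was 0.880 without cells that held UMIs of another type and S100a4 was 1.38 with thinned cells. The S100a4 call was also lost in several others, among them no upper limit on genes and leaving out likely doublets. Its ratio ran from 1.38 to 303 over all alternatives. Chil3 was at 65.8 CPM in FLOX and 877 CPM in the other, 13.3 (11.1 to 16.2) [10.4]. The Saa3 ratio was 11.7 (10.7 to 12.8) [3.42], and ran from 9.45 to 61.7 over the alternatives. Wfdc17, a whey acidic protein-type antiprotease, had 3.57 (3.35 to 3.81) [1.59]. Slpi, a secreted antiprotease, had 3.14 (2.57 to 3.84), where Arg1-low cells lay below 1 at [0.747]. Vcan, versican, a proteoglycan of monocytes, had 6.03 (3.23 to 12.1) [1.37], from 13 and 51 UMIs. F10 was also higher, 2.37 (1.90 to 2.96) [2.68], and so were Il6, 3.91 (2.87 to 5.37) [3.04], and Areg, 4.21 (3.15 to 5.68) [3.24]. Mrc1 had 2.31 (2.06 to 2.58) [1.98] and F13a1 1.67 (1.52 to 1.82) [2.92].

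Lower in the library labelled MCT1-KO were glycolysis and hypoxia genes, each by less than 2-fold for the most part. The glycolysis median was −0.70 over 20 tested, with none higher and 2 lower, Tpi1 and Pfkl, against 2.61% of all genes. Tpi1 had 0.402 (0.358 to 0.450) [0.552], Pgk1 0.580 (0.524 to 0.642) [0.730], Ldha 0.590 (0.541 to 0.642) [0.824] and Slc16a3 0.514 (0.399 to 0.658) [0.436]. The hypoxia median was −0.63. Mmp12 had 0.136 (0.0899 to 0.2) [0.532], from 327 and 29 UMIs, Cd36 0.357 (0.245 to 0.508) [0.424], Ass1, an enzyme that rebuilds arginine, 0.205 (0.102 to 0.376) [0.575], and Igf1, a growth factor, 0.249 (0.14 to 0.418) [0.612]. Of 11 heat shock genes 5 were lower, against 2.61% of all genes, and 1, Hspb1, was higher, against 3.0%. Hspa1a had 0.246 (0.196 to 0.306) [0.0937]. In every alternative 2 of the 5 held, Hspa1a and Hspa1b, and Hsph1 turned to 3.91 with free RNA subtracted. Cell cycle genes had 4 of 15 lower, against 2.61% of all genes, among them Top2a and Cdk1, and none of the 4 held in every alternative. With cells thinned to 1000 UMIs Ass1 was at 0.911, short of 2-fold. Without cells that carried UMIs of another type Igf1 was at 0.570 and Il6 at 1.76, and with free RNA subtracted F10 was at 1.89 and Mrc1 at 1.88, each short of 2-fold.

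Some of the largest ratios did not come from macrophage genes. All 9 acinar genes tested were higher in the library labelled MCT1-KO, including Pnlip with 0 and 146 UMIs and Ctrb1 with a ratio of 28.0 [32.1]. Of 7 collagen and fibroblast genes, 6 were higher, for instance Col3a1, 36 and 103 UMIs, or 4.40 (2.98 to 6.62) [0.925], with 54.4% of its UMIs in the library labelled MCT1-KO in 1 cell. None of these 6 held in every alternative, and 1 of the 9 acinar genes held with free RNA subtracted, an estimate that itself uses acinar genes. The antibody genes Igha and Jchain were lower, with 98.7% and 98.0% of their FLOX UMIs in 1 cell. Cxcl13, a B cell chemokine, had 0 and 59 UMIs, 94.9% of them in 1 cell. These values are given as measured and their part in the other differences was not tested.

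**Figure D5:**
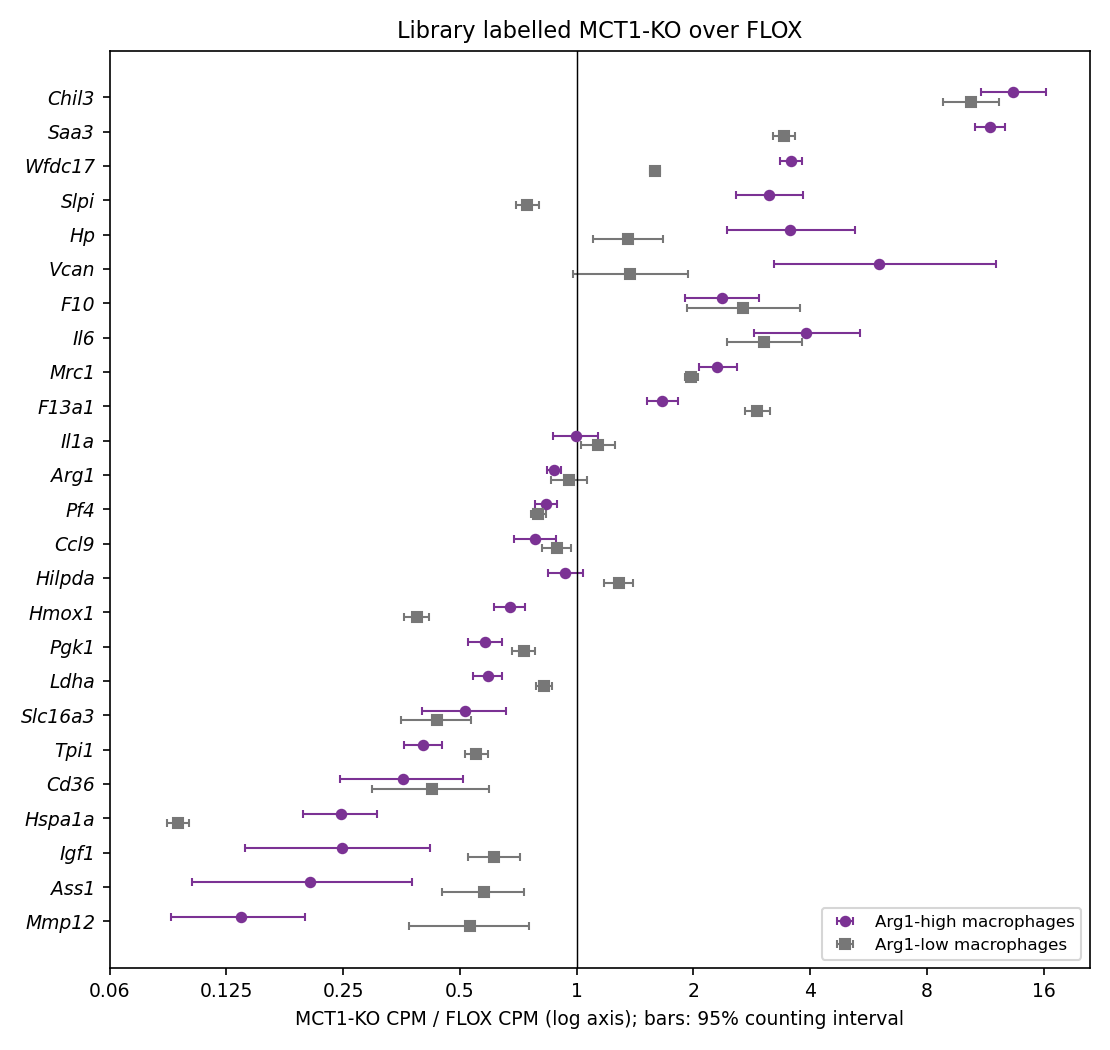
Ratio of CPM in the library labelled MCT1-KO to the FLOX library, on a logarithmic axis, in Arg1-high cells (purple) and Arg1-low cells (grey), with 95% counting intervals. Chil3 and Saa3 lie above 11 in Arg1-high cells, Arg1, Il1a, Pf4 and Hilpda lie near 1, and Mmp12 is the lowest at 0.136.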

How the data were processed

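Cells of orthotopic KPC tumors were dissociated without sorting and sequenced with a microwell 3' kit per the labels, while the study's methods also name droplet kits. The deposited values are raw UMI counts per gene and barcode, made by the authors with Fastp and SeekOneTools. The labels list Seurat 4.0.0. The genome build of the counts is not given in the sources used here beyond a human name in the methods, and the gene IDs are mouse. Aldoa and Ddit3 occur on 2 rows, and the row with more UMIs was used.

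UMIs were summed over the cells of each group and divided by all UMIs of that group (CPM), with Garwood intervals for levels, conditional exact intervals for ratios and Clopper-Pearson intervals for shares (95%). A fold against 0 used a floor of 3 UMIs. With 1 library per group no test was possible. The calculation was checked on simulated counts. Doublets were scored in each library by a nearest-neighbour caller and the top 8% marked. They were not removed, but results without them are in the closing section. Thinning was to 1000 UMIs per cell. The members and gene lists were chosen with earlier results of these data known. Named genes were the proposed markers, the gate genes, list members, the 10 highest and 10 lowest ratios between Arg1-high and Arg1-low cells that held in both libraries, and the 5 highest and 5 lowest between libraries. Odd patterns named outside this rule are said to be so. Alternatives covered limits on cells and genes, doublets, cells with UMIs of another type, thinning, totals, free RNA and the Arg1 limit. The software was scikit-learn 1.9.0, matplotlib 3.10.9, scipy 1.17.1, numpy 2.4.6, pandas 2.3.3 and Python 3.11.15.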

Additional observations from a re-analysis of the deposited data

Results flagged for a closer look

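There were 6 genes at least 2-fold higher in Arg1-high than Arg1-low cells in 1 library and at least 2-fold lower in the remaining one. They are named for this pattern after their values were seen, and the difference was not tested, since each group is 1 library. Jchain, the antibody joining chain, had a ratio of 12.0 in the FLOX library and 0.133 in the library labelled MCT1-KO, and Igha, the IgA heavy chain, had 38.8 and 0.174. Of their FLOX Arg1-high UMIs, 98.0% and 98.7% were in 1 cell. Rbms3, an RNA-binding protein, had 0.0659 and 2.03, with 89.3% of the UMIs of the second library in 1 of 3 Arg1-high cells. Meg3, a long noncoding RNA, had 0 and 2.44, with 94.7% of those UMIs in 1 cell. Adat2, a tRNA deaminase subunit, had 2.35 and 0.490, from 17 and 5 Arg1-high cells, and Arsg, a sulfatase, had 0.481 and 2.11, from 7 and 11 cells.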

How the results depend on the processing

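No paired analysis was possible because each group is 1 library, and for the same reason no replicate could be left out. Of 2854 values for named genes under the alternatives, 2672 kept their direction and their side of 2-fold, 162 crossed 2-fold or, where short of 2-fold to begin with, changed direction, and 20 that had passed 2-fold changed direction. A higher Arg1 limit of 0.2% gave shares of 6.08% and 5.99% of gated macrophages and 398 genes lower in both libraries. With no upper limit on genes 429 were lower, and without likely doublets 124. Leaving out cells with UMIs of another type gave a FLOX share of 8.37%, and 72 higher, 102 lower, and 92 and 66 between libraries. Thinning to 1000 UMIs gave shares of 16.7% and 18.0%, and 23 higher, 13 lower, and 46 and 58 between libraries, with fewer genes reaching 50 UMIs. A minimum of 20 UMIs per gene gave 402 and 392 between libraries, and 200 UMIs gave 66 higher, 70 lower, 42 and 38. Subtracting free RNA, estimated at 32.8% of Arg1-high UMIs for FLOX and 15.0% for the library labelled MCT1-KO, gave 180 higher, 353 lower, 562 and 262. Without the top cell of each gene, an alternative added after seeing the data, 414 were lower. The cause of these moves was not tested unless the construction shows it.

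The 20 that changed direction were Ighg1 (1.03, library labelled MCT1-KO) with 5 gate UMIs and Igha (1.19, between libraries) with the 0.2% limit. Without cells with UMIs of another type they were Iglc1 (1.18 and 1.2), Serpina3n (4.76 and 1.96), Hbegf (1.5, FLOX), Cxcl13 (1.55, library labelled MCT1-KO), Igha (1.13) and Lcn2 (0.880). With thinned cells they were Ccl17 (1.25) and Serpina3n (1.25) in FLOX, and Ighg2c (2.35), Ccr2 (0.870) and Ciita (1.01) in the library labelled MCT1-KO. Subtracting free RNA changed Hsph1 (3.91). In the main setting Serpina3n and Hbegf had each been at least 2-fold lower in the Arg1-high cells of both libraries. Without the top cell of each gene Igha was 1.01 and Igkv14-111 1.15, and without the Arg1-high cell with the most Igha and Jchain UMIs, also chosen after seeing the data, they were 1.05 and 1.15. All these ratios set a count under 3 UMIs to 3. The Arg1-high cells of the library labelled MCT1-KO held 0 UMIs of Igkv14-111, so its change of direction comes from this floor. Without the floor, its ratio without the top cell was 0 (0 to 2.33).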

Other observations

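Peritoneal macrophage genes were measured as a list beside the monocyte genes. Of 8 tested, Fn1, Saa3 and F10 passed 2-fold higher in both libraries, against 1.16% of all genes, and none passed lower. By any amount, 3 were higher and 3 lower in both, with medians of 0.01 and 0.42. F10 alone held in every alternative. Gata6, the transcription factor that defines large peritoneal macrophages, was sparse, with 5 and 7 UMIs in Arg1-high cells. Prg4, lubricin, and Serpinb2, a protease inhibitor, both chosen after their values were seen, had 0 and 2 UMIs in FLOX Arg1-high cells, and 47 and 42 UMIs among those of the library labelled MCT1-KO. For Prg4, 74.5% of these were in 1 cell.

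The share of Arg1-high cells with a UMI of Mki67 or Top2a, genes of dividing cells, was 27.8% (21.9 to 34.4) for FLOX and 35.9% (28.9 to 43.3) for the library labelled MCT1-KO, against 29.6% (27.4 to 31.8) and 28.8% (26.5 to 31.2) of Arg1-low cells, with more UMIs per Arg1-high cell. In level, by contrast, 4 of 15 cell cycle genes, Top2a among them, were at least 2-fold lower in the library labelled MCT1-KO, against 2.61% of all genes. How much of these UMIs is free RNA was not tested.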
